A study of Mus musculus with 8 samples.

Results

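The 58 genes described here serve mitosis, the step of the cell cycle in which duplicated chromosomes are condensed, attached to a spindle and divided between daughter cells. They are a named list of mitotic kinases, spindle checkpoint genes, kinetochore and condensin subunits, spindle proteins and cytokinesis genes. The list was chosen by name and function, with earlier results of these data known. Of the 58, 49 were measured, that is, had a probe called well above background by the scanner software on 4 or more arrays, among 24921 genes or transcripts tested in all. The arrays held liver RNA from 8 female B6C3F1 mice, an F1 hybrid strain used in carcinogenicity testing, bought at 5 to 6 weeks of age. The 4 furan mice, replicates 41, 42, 43 and 44, were given furan by gavage in corn oil for 21 days, at 8 mg/kg body weight a dose. The 4 vehicle mice, replicates 2, 3, 4 and 6, received corn oil alone. Livers were removed 4 hours after dosing ended and snap frozen, and each animal was measured on 1 one-colour array. Furan is a small volatile ring compound found in heated foods. It damages the rodent liver and causes tumours there.

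In an adult liver most hepatocytes rest outside the cell cycle, and mitotic genes are transcribed mainly in the few cells that pass through late G2 and M phase. Entry into mitosis is driven by the kinase CDK1 with its cyclins, and by the Aurora and Polo-like kinases. The spindle checkpoint holds the cell until every kinetochore, the protein plate on the centromere, is attached to microtubules, and then releases CDC20 to start the destruction of securin and cyclin B. Many of these genes share a promoter layout in which CCAAT boxes, bound by NF-Y, stand near a cell cycle genes homology region (CHR), bound by the DREAM and MYB-MuvB complexes. In whole liver, fewer cells of a type and less RNA per cell cannot be told apart, and the same holds for more of either.

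The promoters are shown for 5 genes that rose after furan and for Ckap5, a spindle gene with a log2 change of 0.01 ± 0.08, because they show how far the letters of that layout are present or missing in single genes. RefSeq promoter windows of 300 bases, from 250 before to 50 after a gene's start in build GRCm38.p6, were matched for 50 of the 58 genes, with 55 windows since some genes have several starts. Not matched were Cdc25c, Foxm1, Aurkb, Incenp, Spc24, Smc4, Cdca2 and Tpx2. Each sequence below is the stretch of 200 bases that ends 30 bases after the start, 5′ to 3′ on the gene's strand, with capitals marking CHR (TTTGAA or TTCGAA) and CCAAT box (CCAAT) matches on either strand. The stretches lie at chr6:66535051-66535250 (plus strand) for Mad2l1, chr3:27153825-27154024 (minus strand) for Ect2, chr2:172370541-172370740 (minus strand) for Aurka, chr4:118437314-118437513 (minus strand) for Cdc20, chr13:51645062-51645261 (plus strand) for Cks2 and chr2:91526592-91526791 (plus strand) for Ckap5.
Mad2l1: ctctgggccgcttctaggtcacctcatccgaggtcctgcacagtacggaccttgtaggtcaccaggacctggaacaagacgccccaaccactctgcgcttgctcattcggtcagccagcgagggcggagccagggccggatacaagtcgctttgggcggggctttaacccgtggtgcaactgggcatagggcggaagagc
Ect2: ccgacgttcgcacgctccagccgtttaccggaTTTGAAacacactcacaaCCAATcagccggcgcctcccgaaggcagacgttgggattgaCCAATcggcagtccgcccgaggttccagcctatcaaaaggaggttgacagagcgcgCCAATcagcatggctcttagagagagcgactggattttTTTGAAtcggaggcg
Aurka: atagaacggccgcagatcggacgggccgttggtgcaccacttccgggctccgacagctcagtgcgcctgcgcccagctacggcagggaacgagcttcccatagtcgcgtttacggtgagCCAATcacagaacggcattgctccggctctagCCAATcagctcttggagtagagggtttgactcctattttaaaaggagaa
Cdc20: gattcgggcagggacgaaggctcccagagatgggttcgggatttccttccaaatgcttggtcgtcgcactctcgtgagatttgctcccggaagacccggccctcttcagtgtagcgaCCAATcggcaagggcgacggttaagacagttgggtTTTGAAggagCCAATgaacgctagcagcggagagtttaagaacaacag
Cks2: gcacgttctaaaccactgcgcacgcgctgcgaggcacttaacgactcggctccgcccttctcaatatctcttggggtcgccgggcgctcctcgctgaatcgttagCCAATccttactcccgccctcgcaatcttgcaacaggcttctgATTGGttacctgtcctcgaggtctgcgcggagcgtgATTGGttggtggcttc
Ckap5: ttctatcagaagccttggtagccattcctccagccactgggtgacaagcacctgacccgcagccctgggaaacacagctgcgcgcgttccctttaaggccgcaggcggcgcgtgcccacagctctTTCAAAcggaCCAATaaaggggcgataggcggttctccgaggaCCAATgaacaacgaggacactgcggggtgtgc

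In Cdc20 a CCAAT box began 53 bases before the start and a CHR 18 bases before it, with a second CCAAT box between the CHR and the start. Ect2, which has a second listed start, held 3 CCAAT boxes and 2 CHR matches in the stretch shown. In Aurka the 2 CCAAT boxes lay in the stretch and a CHR match began 33 bases after the start, beyond it. Cks2 held CCAAT boxes and no CHR in its window, and Mad2l1 held neither motif. Ckap5 had a CHR on the opposite strand and 2 CCAAT boxes.

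Over all 55 windows of the mitosis genes, 70.9% held a CHR, against 19.2% of 32851 windows of all genes. A CCAAT box stood in 76.4% of the mitosis windows, against 37.4% of all, and both motifs together in 63.6%, against 7.52%. An E2F motif, searched as the letters TTTGGCG, as the variant TTTCCCG, as the variant TTTGCCG and as the variant TTTCGCG on either strand with overlaps between motifs allowed, was found in 11 of the 55 mitosis windows, against 6.70% of all. Among the 9 windows of genes that rose, which belong to 8 genes, 66.7% held a CHR, 66.7% a CCAAT box and 0 an E2F motif. Among the 39 windows of measured genes that did not pass the test, 71.8% held a CHR, 79.5% a CCAAT box and 20.5% an E2F motif. These are shares of letter matches and were not tested.

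Each level below is a log2 signal relative to the 75th percentile of its array, so 0 is that percentile and 1 unit is a doubling. Each change is furan minus vehicle with its limma standard error, and a gene passed at a limma adjusted p under 0.05, adjusted over all 24921. Of the 49 measured mitosis genes, 10 rose and 0 fell. Across all features 2.87% were called higher and 1.31% lower, 4.18% in all. The 10 were Mad2l1, Ect2, Foxm1, Tacc3, Aurka, Cdca3, Smc4, Cdc20, Cks2 and Anln. The log2 change was above 0 in 44 of the 49, with a median of 0.55, against a median of -0.09 over all features. In 20 of the 49 every furan array lay above every vehicle array, a pattern shown by 10.8% of all features. The opposite order was found in 1, Pttg1, and in 7.36% of all features.

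A pair of traits of the arrays touches these values. On the array of vehicle replicate 2, 86.2% of spots were well above background, against 55.1% to 69.4% on the other 7, and its features dimmer than the median had a median level of -1.76, against -2.84 to -2.58. The 8 arrays sat on 1 slide in 2 rows, with furan replicates 43 and 44 and vehicle replicates 2 and 6 in slide row 1, and furan replicates 41 and 42 and vehicle replicates 3 and 4 in slide row 2. Without vehicle replicate 2 the median log2 change of the mitosis genes was 0.76, against -0.07 over all features. In that fit 47 of 49 were above 0, and 7 rose, among 2.42% of all features. 5 of these 7 were among the 10, namely Mad2l1, Ect2, Foxm1, Tacc3 and Cks2. The other 2 were Cdca5, the sororin gene, which protects sister chromatid cohesion, and Ckap2, a spindle pole protein gene. Ckap2 was well above background on 4 furan arrays and 2 vehicle arrays, so its furan arrays alone met the filter. With the slide row as a block 5 were called, among 2.2% of all features, namely Mad2l1, Ect2, Foxm1, Tacc3 and Aurka. Each slide column held 1 furan and 1 vehicle array. With the column as a block limma called 0, with an unadjusted p under 0.05 for 27 of the 49 and for 4723 features in all, or 19.0%.

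**Figure D1:**
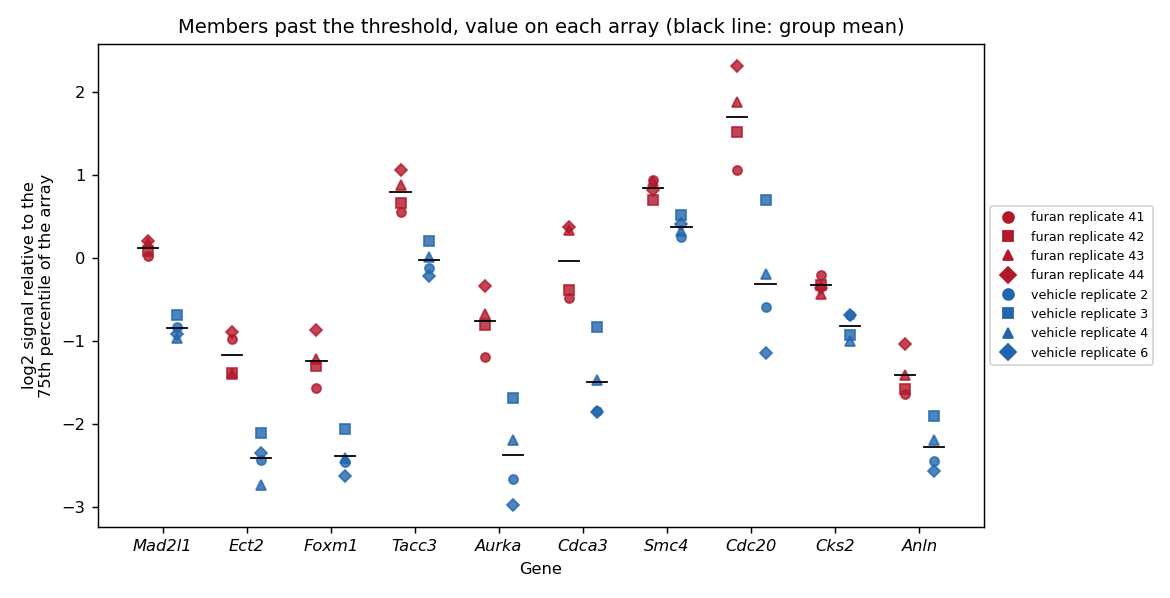
Log2 signal of the 10 mitosis genes that rose, on each of the 8 arrays, with furan (red) left of vehicle (blue) for each gene, marker shapes for replicates and a black line for each group mean. In every one of the 10 the lowest furan value lies above the highest vehicle value, with the widest spread in Cdc20 and the narrowest gap between groups in Smc4 and Cks2.

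Among the genes of mitotic entry and the mitotic kinases, 3 of 8 measured genes rose and 0 fell, with a median log2 change of 0.76. Aurka, the kinase that matures centrosomes and helps activate PLK1, had levels of -1.19, -0.81, -0.67 and -0.34 on the arrays of furan replicates 41, 42, 43 and 44, against -2.66, -1.69, -2.19 and -2.97 on those of vehicle replicates 2, 3, 4 and 6. Every furan array was above every vehicle array, and the change was 1.63 ± 0.30, or 3.09-fold (limma adjusted p = 0.0290). Foxm1, the transcription factor that drives late G2 and mitotic genes, stood at -1.57, -1.30, -1.21 and -0.86 in the furan livers, against -2.46, -2.06, -2.41 and -2.62 in the vehicle livers. It rose by 1.15 ± 0.18, or 2.22-fold (limma adjusted p = 0.0184). Cks2, a small subunit that binds cyclin-dependent kinases, was at -0.20, -0.32, -0.43 and -0.36 after furan, against -0.69, -0.92, -0.99 and -0.68 after vehicle, a rise of 0.50 ± 0.11, or 1.41-fold (limma adjusted p = 0.0457). Cks2 was the gene of this group whose highest furan value came from replicate 41 and not from 43 or 44.

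Plk1, the Polo-like kinase of spindle assembly and cytokinesis, had levels of -0.84, -0.28, 0.08 and 0.45 in the furan livers, against -1.35, -0.96, -1.68 and -2.09 in the vehicle livers. The groups did not overlap, yet the log2 change of 1.37 ± 0.33 missed the threshold (limma adjusted p = 0.0588). Plk1 passed in the authors' value table (limma adjusted p = 0.0234), with eBayes set to trend and robust (0.0218), with normexp and with array weights. Those settings called 15 mitosis genes higher and 1 lower with normexp, where 3.32% of all features were higher and 1.95% lower, and 17 higher with array weights, where 4.98% of all features were. Cdk1 itself, the kinase that starts mitosis, was not measured. Its brightest probe was well above background on 1 furan array and 2 vehicle arrays, and its other probes on 0 arrays. The phosphatase gene Cdc25c and the kinase genes Plk4 and Melk were also below the filter. The other 4 measured genes, the centrosome kinase gene Nek2, the CDK phosphatase genes Cdkn3 and Cdc25b and the CDK subunit gene Cks1b, had log2 changes between 0.14 and 0.81, with overlapping groups and none past the threshold.

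In the chromosomal passenger complex, which corrects faulty attachments, 0 of 3 measured genes passed in limma, though all 3 had an unadjusted p under 0.05, as did 23.8% of all features, and 3 passed with trend and robust. Birc5, the survivin gene, was at 1.12, 1.48, 1.96 and 2.06 in the furan livers, against 0.43, 1.04, 0.27 and 0.01 in the vehicle livers, so its groups did not overlap, with a change of 1.22 ± 0.28 (limma adjusted p = 0.0538). Cdca8, the borealin gene, had a change of 0.88 ± 0.23 (limma adjusted p = 0.0688), and furan replicate 41, at 0.14, lay just under vehicle replicate 3, at 0.18. Dimmer probes gave changes of 0.80 for Birc5 and 0.41 for Cdca8. Neither passed when each probe was tested on its own (limma adjusted p = 0.335 for Birc5 and 0.613 for Cdca8). A second, dimmer probe of Incenp, the scaffold of the complex, gave a change of 0.62 and passed when each probe was tested on its own (limma adjusted p = 0.0409), while the brighter one gave 0.46. Aurkb, the kinase of the complex, was well above background on 0 arrays of either group.

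Of the spindle checkpoint genes, 1 of 4 measured rose. Mad2l1 encodes MAD2, which binds and holds CDC20 while kinetochores are unattached. Its levels were 0.02, 0.08, 0.19 and 0.20 in the furan livers, against -0.83, -0.68, -0.96 and -0.91 in the vehicle livers. The spread within each group was small, at an SD of 0.09 for furan and 0.12 for vehicle, and the rise of 0.97 ± 0.09, or 1.96-fold, had the smallest adjusted p of the 49 (limma adjusted p = 0.00501). Mad2l1 also passed whichever of the 8 arrays was omitted. Its 2 dimmer probes, however, gave changes of -0.23 and 0.43, and neither passed. The mean of its 3 probes had a change of 0.39 and did not pass (limma adjusted p = 0.315), nor did the brightest probe with a median shift (0.172) or with the slide column as a block (0.0964). Bub3, which loads BUB1 and BUBR1 on kinetochores, had a mean of 2.99 ± 0.06 after furan and 2.69 ± 0.11 after vehicle (SD, n = 4 each), a change of 0.29 ± 0.09 that did not pass. Bub1b, the BUBR1 gene, and Kntc1, a kinetochore gene that recruits dynein, had changes of 0.08 ± 0.48 and -0.23 ± 0.62, with wide spread in both groups. Without vehicle replicate 2 their changes were 0.51 and 0.36. Bub1 and Ttk, the checkpoint kinase genes, were below the filter.

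In the group of anaphase exit and cohesion release, 2 of 6 measured genes rose. Cdc20, the activator of the anaphase-promoting complex, was at 1.07, 1.53, 1.89 and 2.32 in the furan livers, against -0.59, 0.70, -0.19 and -1.15 in the vehicle livers. The rise of 2.01 ± 0.42, or 4.02-fold, was the largest of the 49 (limma adjusted p = 0.0415), and vehicle replicate 3 came nearest to the furan arrays. Cdca3, a trigger of mitotic entry that directs WEE1 to destruction, was at -0.48, -0.38, 0.35 and 0.38 after furan, against -1.84, -0.83, -1.47 and -1.85 after vehicle, a rise of 1.46 ± 0.30, or 2.76-fold (limma adjusted p = 0.0394).

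Pttg1, the securin gene, chosen here after its values were seen, was the 1 gene with every furan value below every vehicle value. It was at 3.71, 3.70, 3.79 and 3.71 in the furan livers, against 3.87, 4.01, 4.01 and 3.88 in the vehicle livers. The change of -0.22 ± 0.08 was small beside those of the genes that rose and did not pass (limma adjusted p = 0.152). In the authors' value table it did, with a change of -0.33 (limma adjusted p = 0.0404), as it did with normexp. A second, dimmer Pttg1 probe gave -0.11 and did not pass on its own (limma adjusted p = 0.749). Securin is the protein that keeps separase inactive until CDC20 marks it for destruction. Ube2c, the ubiquitin-conjugating enzyme gene of the anaphase-promoting complex, had a change of 0.82 ± 0.29, Cdca5 one of 0.80 ± 0.27, and Espl1, the separase gene itself, one of -0.11 ± 0.61, none past the threshold. The change of Espl1 was 0.44 without vehicle replicate 2.

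At the centromere and kinetochore, 0 of 9 measured genes passed in limma, and 4 had an unadjusted p under 0.05, as did 23.8% of all features. The median log2 change was 0.28. Cenpe, a kinesin that carries chromosomes to the spindle equator, came nearest, at -1.20, -0.76, -0.39 and -0.06 in the furan livers, against -2.01, -1.27, -1.83 and -2.09 in the vehicle livers. Its groups did not overlap, and the change was 1.20 ± 0.28 (limma adjusted p = 0.0552). The subunits of the NDC80 complex, which grips microtubule ends, had unlike values: Spc24 had a change of 0.37 ± 0.14, Spc25 of 0.28 ± 0.15, Nuf2 of 0.14 ± 0.74 and Ndc80 of -0.52 ± 0.80, none past the threshold. Nuf2 and Ndc80, named with Spc25 after their values were seen, are dim genes with wide errors, and without vehicle replicate 2 their changes were 0.83 and 0.24. The centromere genes Cenpa, Cenph, Cenpk and Cenpn had changes between -0.17 and 0.66, with overlapping groups, and Cenpf was below the filter.

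Among condensin and chromosome structure genes, 1 of 8 measured rose, with a median log2 change of 0.51, and all 8 were above 0. Smc4, an ATPase of both condensin complexes, was at 0.94, 0.70, 0.94 and 0.83 in the furan livers, against 0.26, 0.52, 0.33 and 0.42 in the vehicle livers. Both groups were narrow, and the rise was 0.47 ± 0.10, or 1.39-fold (limma adjusted p = 0.0412). Its ATPase partner Smc2 had a change of 0.73 ± 0.22 and the condensin I subunit gene Ncaph one of 0.55 ± 0.14, both with no overlap between groups and neither past the threshold (limma adjusted p = 0.0693 for Ncaph). The other condensin I subunit gene Ncapd2 had a change of 0.33, the condensin II subunit gene Ncapg2 one of 0.22, and Ncapg was well above background on 0 arrays. Cdca2, which recruits a phosphatase to anaphase chromatin, had a change of 0.39 ± 0.45.

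Mki67, whose protein coats mitotic chromosomes and is the common stain for dividing cells, was at -0.43, -0.03, 0.54 and 0.60 in the furan livers, against -0.63, -0.45, -0.86 and -1.25 in the vehicle livers. Furan replicate 41 lay just above vehicle replicate 3, so the groups barely separated, and the change of 0.96 ± 0.27 did not pass (limma adjusted p = 0.0857), though it did in the authors' value table (0.0438). Its second probe gave 1.08. Top2a, the topoisomerase that untangles sister chromatids, was dim in both groups, at -3.40, -2.68, -2.25 and -2.22 after furan, against -2.73, -3.37, -3.51 and -4.40 after vehicle. The groups overlapped, since vehicle replicate 2 lay above furan replicate 41, and the change was 0.86 ± 0.39 (limma adjusted p = 0.225).

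Of the spindle assembly genes, 1 of 8 rose. Tacc3, which strengthens spindle fibres as a target of Aurora A, was at 0.56, 0.66, 0.88 and 1.07 in the furan livers, against -0.12, 0.21, 0.02 and -0.21 in the vehicle livers, a rise of 0.82 ± 0.14, or 1.77-fold (limma adjusted p = 0.0264). Prc1, which bundles the central spindle, was at -1.16, -0.48, -0.66 and -0.09 after furan, against -2.22, -1.35, -1.69 and -2.41 after vehicle. Its change of 1.32 ± 0.30 lay just outside the threshold (limma adjusted p = 0.0508). Tpx2, the activator of Aurora A on microtubules, had a change of 0.86 ± 0.46 (limma adjusted p = 0.282), while its second, dimmer probe gave -0.78, so its probes disagreed in direction. Ckap5, a microtubule polymerase gene named after its values were seen, had a mean of 1.09 ± 0.04 after furan and 1.08 ± 0.06 after vehicle (SD, n = 4 each). The spindle genes Nusap1, Hmmr and Spag5 had changes between 0.22 and 0.34, and Ckap2 one of 1.42 ± 0.53, none past the threshold (limma adjusted p = 0.161 for Ckap2).

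In cytokinesis, 2 of 3 measured genes rose. Ect2, the exchange factor that activates RhoA at the cell equator, was at -0.97, -1.39, -1.40 and -0.89 in the furan livers, against -2.43, -2.11, -2.74 and -2.35 in the vehicle livers, a rise of 1.24 ± 0.18, or 2.36-fold (limma adjusted p = 0.0152). Anln, the anillin gene of the contractile ring, was at -1.64, -1.58, -1.41 and -1.03 after furan, against -2.45, -1.91, -2.20 and -2.57 after vehicle, a rise of 0.87 ± 0.19, or 1.82-fold (limma adjusted p = 0.0468). Racgap1, which recruits ECT2 to the midzone, had a change of 0.82 ± 0.22 at its brighter probe (limma adjusted p = 0.0791), and its second probe passed on its own with 0.93 (0.0131).

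**Figure D2:**
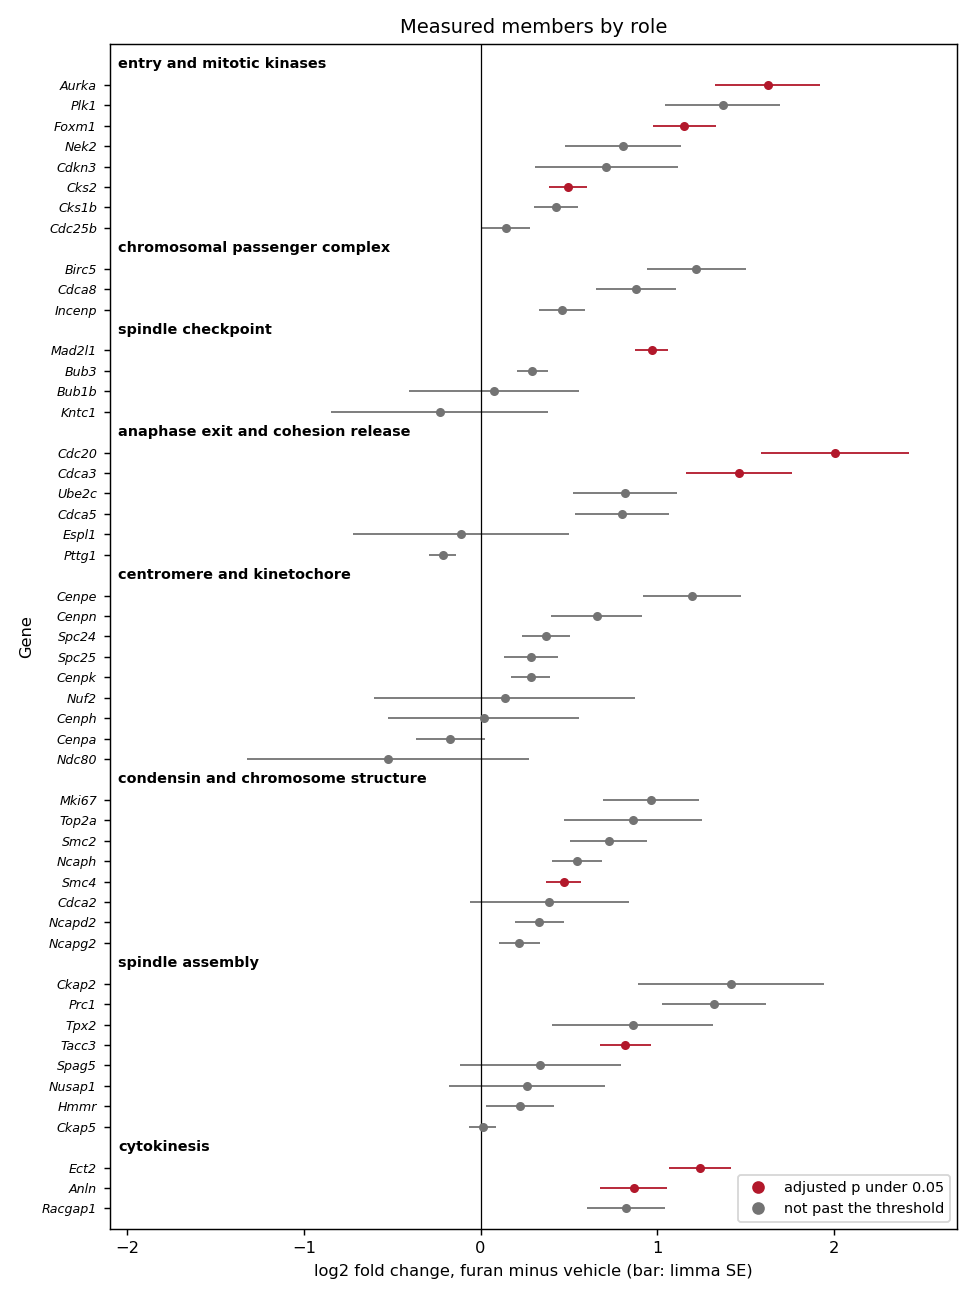
Log2 fold change, furan minus vehicle, of the 49 measured mitosis genes, grouped by role, with bars for the limma standard error and red for those past an adjusted p of 0.05. Points to the right of 0 are higher in furan. 44 of the 49 lie there, from 2.01 for Cdc20 downward, and the widest bars belong to dim kinetochore genes such as Ndc80 and Nuf2.

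How firmly each of the 10 rose depended on single arrays. Ect2 passed in 7 of the 8 fits made with 1 array omitted (limma adjusted p = 0.0525 without furan replicate 41), Foxm1 in 4 and Tacc3 in 2. Cks2, Aurka, Cdc20 and Cdca3 each passed in 1, and Smc4 and Anln in 0, with limma adjusted p between 0.0515 and 0.119 for Smc4 and Anln over the 8 fits. The number of mitosis genes past the threshold was 2 without furan replicate 41, 42 or 43, 3 without furan replicate 44, 7 without vehicle replicate 2 or 3, and 2 without vehicle replicate 4 or 6. All features called higher made up 0.57%, 0.75%, 0.59% and 0.758% without furan replicates 41, 42, 43 and 44, and 2.42%, 1.18%, 0.871% and 0.855% without vehicle replicates 2, 3, 4 and 6. Without vehicle replicate 2 the limma adjusted p was 0.0504 for Aurka, 0.0635 for Cdca3, 0.0622 for Smc4, 0.0675 for Cdc20 and 0.0751 for Anln.

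The mitosis genes also differed among the furan livers. Furan replicates 43 and 44 both lay above replicates 41 and 42 in 39 of the 49 genes, or 79.6%, against 19.1% of all features. The median level over the 49 genes was -0.97, -0.76, -0.49 and -0.34 for furan replicates 41, 42, 43 and 44, against -1.36, -1.10, -1.69 and -1.89 for vehicle replicates 2, 3, 4 and 6. All 4 furan medians were above all 4 vehicle medians, and the median of vehicle replicate 3 was nearest to the furan arrays. By mean level over the 49 genes the groups overlapped. Furan replicate 41, at -1.10, lay below vehicle replicate 2, at -1.05, and above vehicle replicate 3, at -1.17. Replicates 43 and 44 shared slide row 1, so the animal and the slide row cannot be told apart in this split.

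Within slide row 1 the median log2 change of the 49 genes was 0.75, and within slide row 2 it was 0.38. The change was larger in row 1 for 45 of the 49, against 44.6% of all features. Cdc20 had a change of 2.97 in row 1 and 1.04 in row 2, Aurka 2.31 in row 1 and 0.94 in row 2, and Cdca3 2.21 in row 1 and 0.72 in row 2. The change of Ect2 was 1.24 in both rows and that of Mad2l1 1.07 in row 1 and 0.87 in row 2. Cks2, with 0.29 in row 1 and 0.70 in row 2, was the 1 gene of the 10 that was larger in row 2. With 2 arrays a group in each row, limma called 0 mitosis genes within either row, with an unadjusted p under 0.05 for 23 of the 49 in row 1, against 9.02% of all features, and 11 in row 2, against 15.9%, and the difference between rows was not tested.

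**Figure D3:**
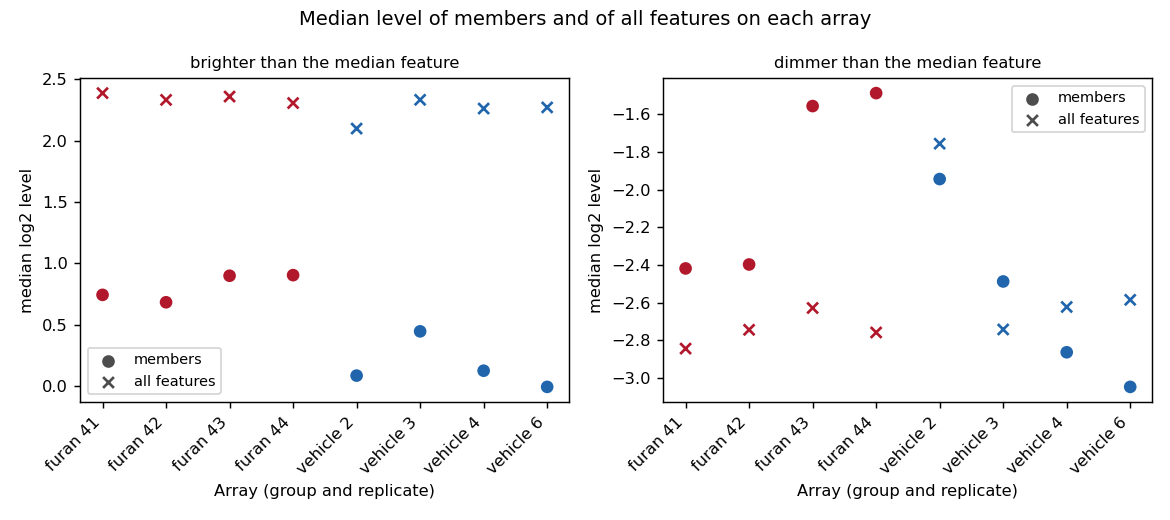
Median log2 level on each array of the measured mitosis genes (circles) and of all features (crosses), with furan (red) left of vehicle (blue), for features brighter (left panel) and dimmer (right panel) than the median feature. In the right panel the cross of vehicle replicate 2 stands at -1.76, above those of the other 7 arrays, and its mitosis genes at -1.94, above those of furan replicates 41 and 42.

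The genes were also split by the brightness of their probes. Of the 20 mitosis genes brighter than the median feature, 5 rose, with a median change of 0.47, where 4.61% of all bright features were called higher. Of the 29 dimmer ones 5 rose, with a median of 0.73, where 1.12% of all dim features were called higher. The median level of the bright ones was 0.74, 0.68, 0.90 and 0.90 for furan replicates 41, 42, 43 and 44, against 0.09, 0.45, 0.13 and -0.00 for vehicle replicates 2, 3, 4 and 6. For the dim ones it was -2.42, -2.40, -1.56 and -1.49 on the furan arrays, against -1.94, -2.49, -2.86 and -3.05 on the vehicle arrays, so here vehicle replicate 2 lay above furan replicates 41 and 42. Without vehicle replicate 2 all 29 dim genes had a change above 0, with a median of 0.81.

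**Figure D4:**
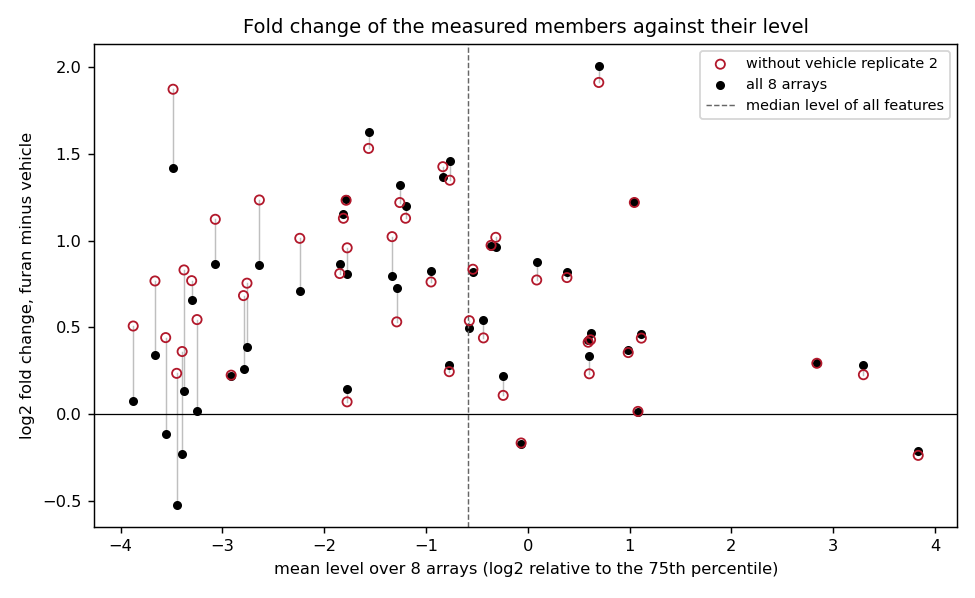
Log2 fold change, furan minus vehicle, of the 49 measured mitosis genes against their mean level over the 8 arrays, without vehicle replicate 2 (open red circles) and with all 8 arrays (black), joined by a line for each gene, with the median level of all features dashed. The longest lines are those of the dimmest genes, whose change moves upward without that array, while bright genes hardly move.

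The values also depend on the scale. In the authors' value table, of the 49 mitosis genes, 19 rose and 1, Pttg1, fell, where 4.45% of all features were called higher and 2.24% lower. The 19 held 9 of the 10, without Anln, and added Plk1, Birc5, Cenpe, Prc1, Mki67, Ncaph, Racgap1, Cdca5, Cenpn and Ckap2. Of these Ckap2 was well above background on only 2 vehicle arrays. eBayes with trend and robust also gave 19, where 5.77% of all features were called higher, and these held all 10. With the filter set to all 8 arrays 17 rose, with a background of 5.41%. Quantile normalization gave 6, where 2.25% of all features were called higher, a median shift 2, where 0.341% were, and no shift 4, where 0.923% were. Without the filter on dim probes 1 of all 58 passed, Mad2l1, where 0.334% of features were called higher.

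**Figure D5:**
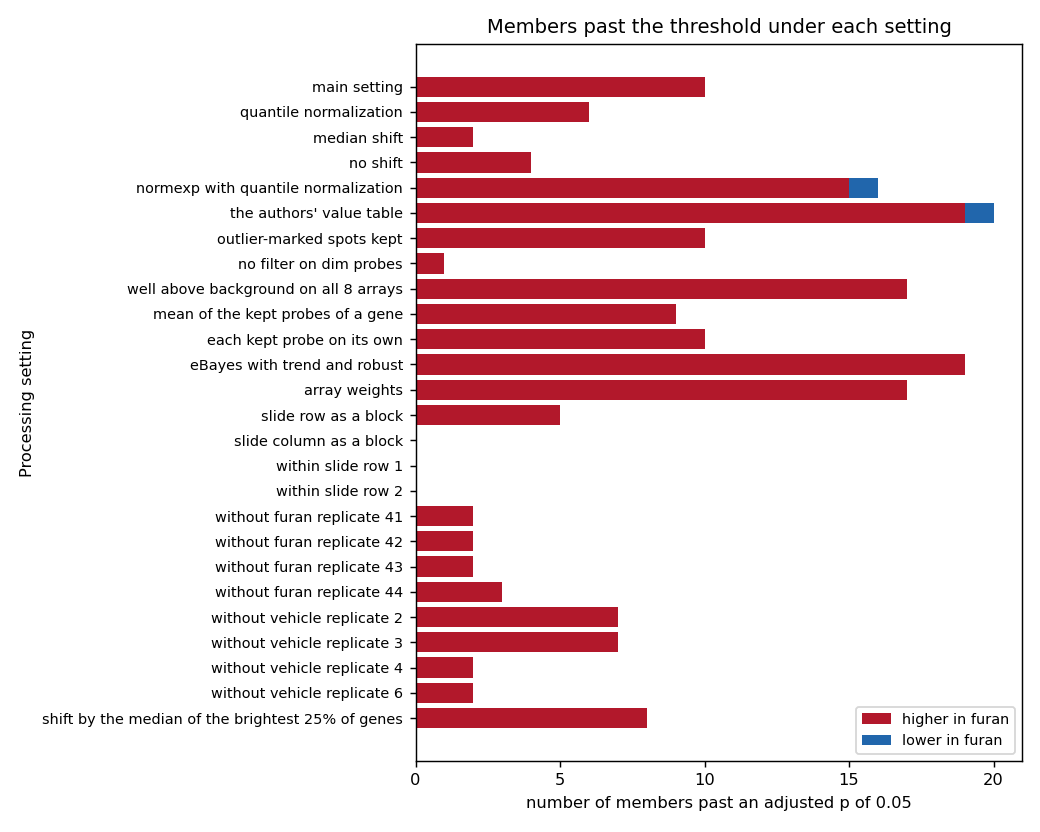
Number of mitosis genes past an adjusted p of 0.05 under each processing setting, with bars from 0, red for higher in furan and blue for lower. The counts run from 0 with the slide column as a block or within 1 slide row to 20 in the authors' value table, and Pttg1 is the only gene in the blue bars.

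Other mitosis genes, 96 that are not among the 58, were looked at for comparison in 5 lists. Of these 82 were measured, 6 rose and 0 fell, where 2.87% of all features were called higher and 1.31% lower. Their median log2 change was 0.14. Of other centromere and kinetochore genes 1 of 27 rose, of anaphase-promoting complex genes 1 of 16, of cohesin and other condensin genes 3 of 14, of other mitotic entry genes 1 of 14, and of other spindle, centrosome and cytokinesis genes 0 of 11. In the last list 2 of the 11 had an unadjusted p under 0.05, as did 23.8% of all features. Zwint, a kinetochore protein gene that helps recruit the checkpoint, rose by 0.62 ± 0.08 (limma adjusted p = 0.0124), and Pds5b, a cohesin regulator gene, by 0.73 ± 0.09 (limma adjusted p = 0.0115). These 2 passed whichever of the 8 arrays was omitted. Wapl, which releases cohesin from chromosomes, rose by 0.57 ± 0.09 and the cohesin subunit gene Stag1 by 0.45 ± 0.10, while Anapc16, a subunit gene of the anaphase-promoting complex, rose by 0.61 ± 0.11 and Cdc25a, a phosphatase gene that activates cyclin-dependent kinases, by 0.53 ± 0.10 (limma adjusted p between 0.0225 and 0.0494).

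Markers of liver cell types were read on the same arrays, and limma called 0 of them in any of the 9 lists. Under other settings some passed, all of them chosen after their values were seen. Stab2, a scavenger receptor gene of sinusoidal endothelium, had a change of -0.48 and was called lower in the authors' value table (limma adjusted p = 0.0166), with normexp (0.0154), with trend and robust (0.0269) and with quantile normalization (0.0292). The amylase gene Amy2a5, also at -0.48, was called lower in the authors' value table (limma adjusted p = 0.0381) and with normexp (0.0381). Pecam1 and Cela2a were called lower with array weights, Pecam1 also with trend and robust, and the hepatocyte factor gene Hnf4a was called higher with trend and robust. An unadjusted p under 0.05 was found for 4 of the 5 exocrine pancreas markers and for at most 2 in each other list. The share over all features was 23.8%. The mean level of 8 hepatocyte markers was 8.16 to 8.24 on the furan arrays and 8.03 to 8.35 on the vehicle arrays. For 7 Kupffer cell and macrophage markers it was 3.41 to 3.76 in furan livers and 3.15 to 4.51 in vehicle livers, and for 6 sinusoidal endothelium markers 1.88 to 2.12 in furan livers and 2.06 to 2.32 in vehicle livers. The 7 stellate cell and fibroblast markers lay at -0.58 to -0.16 after furan and -0.58 to -0.13 after vehicle, and the 6 bile duct markers at -2.13 to -1.52 after furan and -1.90 to -0.96 after vehicle. The 7 lymphocyte markers had mean levels of -1.64 to -1.50 after furan and -1.42 to -1.05 after vehicle. The 5 exocrine pancreas markers had means of -0.86 to -0.70 after furan and -0.31 to -0.21 after vehicle. In both lists the furan means lay below the vehicle means, while by median level the groups overlapped. The mean level of the 49 mitosis genes was -1.10 to -0.46 after furan and -1.68 to -1.05 after vehicle, so these ranges overlapped. The part of both marker lists in the result was not tested. The 4 measured neutrophil and myeloid precursor markers had means of -1.33 to -0.60 after furan and -1.01 to -0.78 after vehicle, with Mpo and Ltf below the filter and Ly6g not analysed here. The 3 measured erythroid markers had means of 3.48 to 3.77 after furan and 3.40 to 3.90 after vehicle.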

How the data were processed

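Per the file headers, Agilent Feature Extraction 11.0.1.1 gave each spot a processed fluorescence intensity after background subtraction and detrending. The value table deposited by the authors is in log2 units, and how it was made was not given in the sources used here. Control spots, 3671 of 62976 on an array, and outlier-marked spots, 128 to 315, were left out.

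The 75th percentile of each array was subtracted from its log2 intensities, and repeated spots were averaged by probe. Probes well above background on at least 4 of 8 arrays were kept, and a gene was read from its kept probe with the highest mean. Symbols came through RefSeq accessions, which named 27235 of 28685 probes with one. The groups were compared with limma 3.58.1 in R 4.3.3 (lmFit, eBayes, 2-sided, Benjamini-Hochberg over all 24921). The labels name a randomized block design without the block of any animal, so the fit had 1 group term. They give 1 sample a mouse, and 4 arrays a group limit the precision. The fit was tested on simulated data.

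Named were all mitosis genes past the threshold, the 2 of each role with the smallest adjusted p, Mki67, Top2a, Cdk1, Aurka, Plk1, Birc5, Cdc20, genes whose probes disagree in sign, those below the filter, and up to 3 genes past the threshold of each comparison list. Every other mitosis gene was named after its values were seen. The genes and lists were chosen with earlier results of these data known.

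Alternatives were a median shift, quantile normalization, no shift, normexp (offset 50, on the median intensity) with quantile normalization, the authors' value table, outlier-marked spots kept, no filter, a filter on all 8 arrays, the mean of the probes, each probe on its own, array weights, trend and robust, the slide row and the slide column as blocks, each row alone, each array left out, and adjusted p of 0.01 and 0.10. A shift by the brightest 25% of genes was added after seeing the data.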

Additional observations from a re-analysis of the deposited data

Results flagged for a closer look

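On the array of vehicle replicate 2 the cohesin subunit gene Stag1 was at 0.0905, against 0.354 for the nearest and 0.405 for the farthest of the other 3 vehicle arrays, on the log2 scale. The phosphatase gene Cdc25a was at 0.208 on the same array, against 0.424 for the nearest and 0.465 for the farthest of the others. Both lay further from the rest than Dixon's limit for 4 samples. Of 60 groups tested in this way these 2 were flagged, a smaller share than the 1 in 20 or so that chance gives. Without vehicle replicate 2 the log2 change was 0.38 for Stag1 (limma adjusted p = 0.0556) and 0.47 for Cdc25a (0.0412).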

How the results depend on the processing

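No paired analysis was possible because the furan and vehicle groups share no replicate numbers, and the slide column block pairs arrays by their place on the slide alone. Against 10 mitosis genes past the threshold, 6 passed with quantile normalization, 2 with a median shift, 4 without a shift, 16 with normexp (15 higher, 1 lower), 20 in the authors' value table (19 higher, 1 lower), 1 without the filter, 17 with the filter on all 8 arrays, 19 with trend and robust, 17 with array weights, 5 with the slide row and 0 with the slide column as a block, 0 within slide row 1 or 2, 1 at an adjusted p of 0.01 and 22 at 0.10. Against 6 comparison genes, 1 passed with a median shift, 0 without a shift, 11 with normexp, 17 in the authors' value table, 1 without the filter, 10 with the filter on all 8 arrays, 12 with trend and robust, 15 with array weights, 0 with the slide column as a block, 0 within either slide row, 0 at 0.01 and 15 at 0.10. Leaving out 1 array gave 2 to 7 mitosis genes and 2 to 9 comparison genes, where 0.57% to 2.42% of all features were called higher. The median change of the mitosis genes in these fits was 0.48 to 0.76. The median change of the mitosis genes, 0.55, was 0.93 with quantile normalization and 1.03 with a median shift, where the median of all features was 0.05 and 0.39, and lay between 0.38 and 0.76 elsewhere. For the named genes, 452 values kept the direction and the side of the threshold, 194 lost and 28 gained the call, and 0 reversed. Trend and robust leaves the change itself as it was, so that setting could not reverse a gene. With each probe on its own only the probe of the main fit was counted. The opposite signs of dimmer Mad2l1 and Tpx2 probes are therefore not in this count. With the mean of a gene's probes 9 mitosis genes passed, without Mad2l1 (change of 0.39). The share of all features called is not given here for that setting or for an adjusted p of 0.01 or 0.10. Counts under these settings therefore stand without a background. The cause of the shifts between settings was not tested. Signal near background limits the dim genes: 9 of 58 could not be measured.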
